A study of Mus musculus with 8 samples.

Results

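The glycosaminoglycan synthesis and sulfation enzymes are the 51 genes of the deposited table, out of 21899, whose symbols belong to the families that build, epimerize, sulfate or desulfate heparan sulfate, chondroitin sulfate and dermatan sulfate, together with the numbered carbohydrate sulfotransferases. They were matched by a pattern of gene symbols. Poly(A) RNA had been sequenced from femoral mesenchymal stem cells of mouse bone marrow, the adherent stromal cells that can form bone, cartilage and fat. The groups compared were cells given 10 µM ellagic acid (EA), a plant polyphenol, for 48 h (4 libraries) and cells given DMSO, its solvent, for the same time (control, 4 libraries). No genotype, strain, age or passage is used here, and the labels do not tell if each library is its own culture or animal. The p-values set the difference between groups against the spread of these libraries only, and that spread may be technical.

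Glycosaminoglycans are long sugar chains carried by proteoglycans of the cell surface and matrix. A short linker is first built on the core protein, after which the chain becomes heparan sulfate when N-acetylglucosamine is added, or chondroitin sulfate when N-acetylgalactosamine is added. Epimerases and sulfotransferases of the Golgi then write a pattern on the chain that sets which growth factors and matrix proteins it binds, and chondroitin sulfate is the main chain of cartilage matrix. Transcript levels of these enzymes are not measurements of the chains themselves.

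Of the 51 genes, 34 had enough reads to be tested, and the clearest differences lay in the genes of chondroitin sulfate. Chst3, which places the 6-O-sulfate of chondroitin, rose 24.8-fold with EA. Chst11, a chondroitin 4-O-sulfotransferase, rose 5.23-fold, Chsy1, a chondroitin synthase, rose 4.75-fold and Ust, which sulfates uronic acid at the 2-O position, rose 2.08-fold. Chst14, the 4-O-sulfotransferase of dermatan sulfate, was 2.25-fold lower, Csgalnact1, which starts chondroitin chains, 2.55-fold lower and Ndst3, a minor heparan sulfate N-sulfotransferase here, 3.08-fold lower. All 4 tested genes of the linker were called lower, against 34.2% of all tested genes, but they are too few to read against that share. Calls are at an adjusted p below 0.05 in an edgeR quasi-likelihood fit of all genes, with reads scaled by trimmed mean of M values (TMM).

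Of the 34 tested genes 15 rose and 12 fell, while 7 did not pass the test. Over the whole transcriptome 67.2% of the 11777 tested genes were called, 33.1% of them higher and 34.2% lower, so a large count of calls is not particular to these enzymes. The median log2 fold change was 0.13 over the 34 and −0.02 over all tested genes. With TMM scaling the groups did not overlap in 25 of the 34, against 60.6% of all tested genes. Every EA library was above in 15 and below in 10, against 29.9% and 30.7%. In 17 of the 34 the groups were apart in the same direction with library totals as well. No share of all tested genes was computed for that count. The counts depended on scaling. When libraries were scaled by their totals alone, the median of all tested genes moved by −0.36 on the log2 scale, and 9 enzymes were higher and 18 lower (16.5% and 61.1% of all tested genes). Upper-quartile factors gave 13 and 13 (24.0% and 45.3%). The calls of 24 of the 34 were the same under both scalings, 9 as higher and 12 as lower, and 2 genes, Ndst1 and Csgalnact2, changed sides. The 4 rises and 3 falls of 2-fold or more with TMM scaling kept their direction and their call with library totals. With TMM scaling such rises made up 8.99% of all tested genes and such falls 8.68%. The set itself depended on scaling. With library totals Ust rose by less than 2-fold (log2 fold change 0.69). Xylt2, Glce, Hs6st2 and Extl1 then also fell by 2-fold or more, at −1.02, −1.04, −1.14 and −1.34. In bulk RNA, fewer cells of a type and less RNA per cell cannot be told apart.

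**Figure D1:**
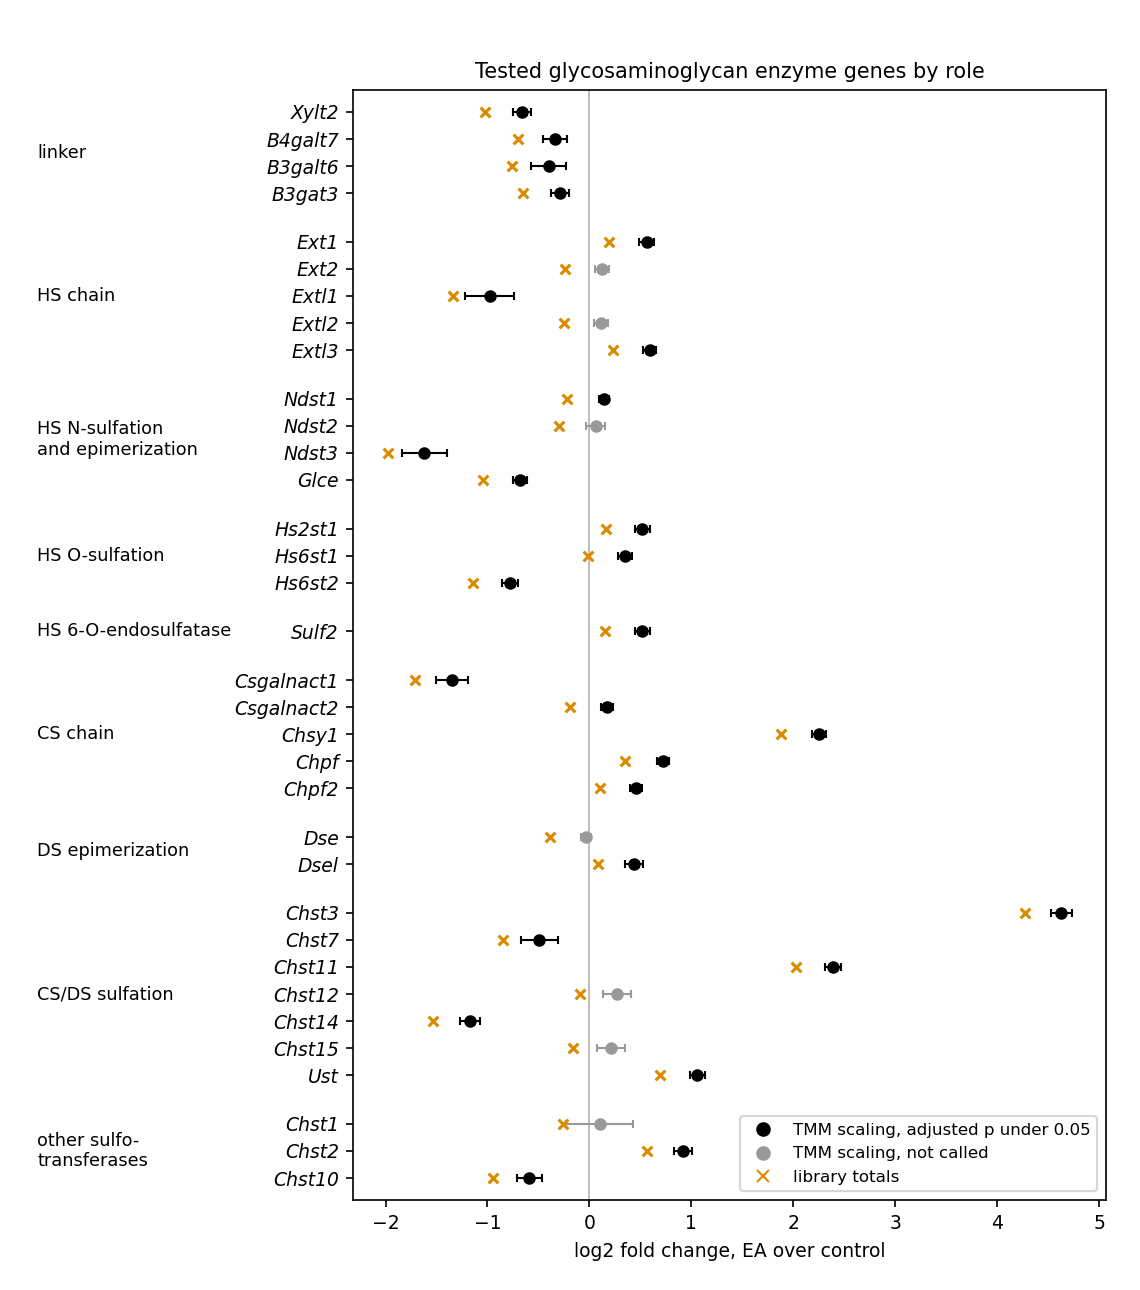
Log2 fold change of EA over control for each tested enzyme gene, grouped by role (HS, heparan sulfate; CS, chondroitin sulfate; DS, dermatan sulfate). Circles are the TMM fit with its SE, black where the adjusted p is under 0.05 and grey where it is not, and crosses are the values with library totals, which lie to the left of every circle. Chst3 stands at 4.63 with TMM scaling and 4.27 with library totals, and Ndst1 and Csgalnact2 are called on opposite sides of 0.

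Libraries held 14112519 to 17390200 reads, with TMM factors of 0.878 to 0.885 for EA and 1.13 to 1.14 for control. The cells were checked against marker lists, in CPM (reads scaled to a common library size) of library totals summed over each list, while single genes are in TMM-scaled CPM. The stromal sum was 17214 to 17975 across EA libraries and 15323 to 17783 across control libraries, most of it from Col1a1 and Col1a2. Of the 9 tested markers 6 were higher and 2 lower, or 2 and 3 with library totals. Eng and Nt5e were low, at 3.53 and 6.27 CPM in EA and 2.16 and 4.39 in control. Both were called higher, with overlap, but not with library totals. Pdgfra and Pdgfrb were 4.59-fold and 2.74-fold higher, Ly6a and Vcam1 were 2.82-fold and 1.49-fold lower, and the untested Thy1 had 0.130 CPM in EA and 0.173 in control. Blood cell and macrophage markers came to 52.0 to 56.2 for EA and 67.0 to 84.3 for control, most of it from Lyz2, which was 1.49-fold higher (51.0 CPM in EA and 34.3 in control), and Cd14, which was 3.53-fold lower (9.65 and 34.0). Ptprc had 17 reads in EA and 16 in control. Endothelial markers summed to 0.779 to 1.13 in EA and 1.42 to 2.27 in control, and mast cell markers to 0.173 to 0.567 and 0.751 to 1.98, with Cpa3 and Cma1 at 0 reads. Chondrocyte markers summed to 42.7 to 51.6 in EA and 25.4 to 42.3 in control. Of that list Col2a1 rose 1.81-fold, and Comp, at 1.68 CPM in EA and 0.845 in control with overlap, was called higher but not with library totals. Acan, the gene of the main cartilage proteoglycan, had 0 reads in EA and 1 in control. The part of these marker differences in the results was not tested.

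Levels are compared between genes only in FPKM, the authors' reads per gene length and per total of the column. Sulf2, which removes 6-O-sulfates from heparan sulfate outside the cell, was the most expressed of the enzymes in each group, at 103 ± 6.01 FPKM in EA and 92.4 ± 11.2 in control (SD, n = 4, as for every ± on a level below). In EA it was followed by Chsy1 at 51.0 FPKM, apart from its neighbours, and by Chpf, Dse, Ndst1, Chst11 and Extl3, of which each overlapped its neighbour within that run. In control the order after Sulf2 was Dse at 41.1, Ndst1 at 34.9, Glce at 28.2 and Chpf at 25.6 FPKM, where the ranges of Glce and Chpf overlapped and the others did not. Between EA and control Chsy1 stood at rank 2 against rank 9, Chst11 at 6 against 21 and Chst3 at 11 against 33 of the 34. Going the other way, Chst14 was at rank 20 in EA and rank 6 in control, and Glce at 9 and 4. These ranks are by the mean deposited FPKM of each group. Only the order within a single library is wholly free of how libraries are scaled. The sum over all 51 genes was 478 ± 13.1 FPKM in EA and 451 ± 20.5 in control, with overlap between groups. Deposited FPKM is scaled by library totals, and after TMM scaling the sum was 542 ± 13.2 in EA and 398 ± 16.3 in control, 1.36-fold higher and without overlap.

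**Figure D2:**
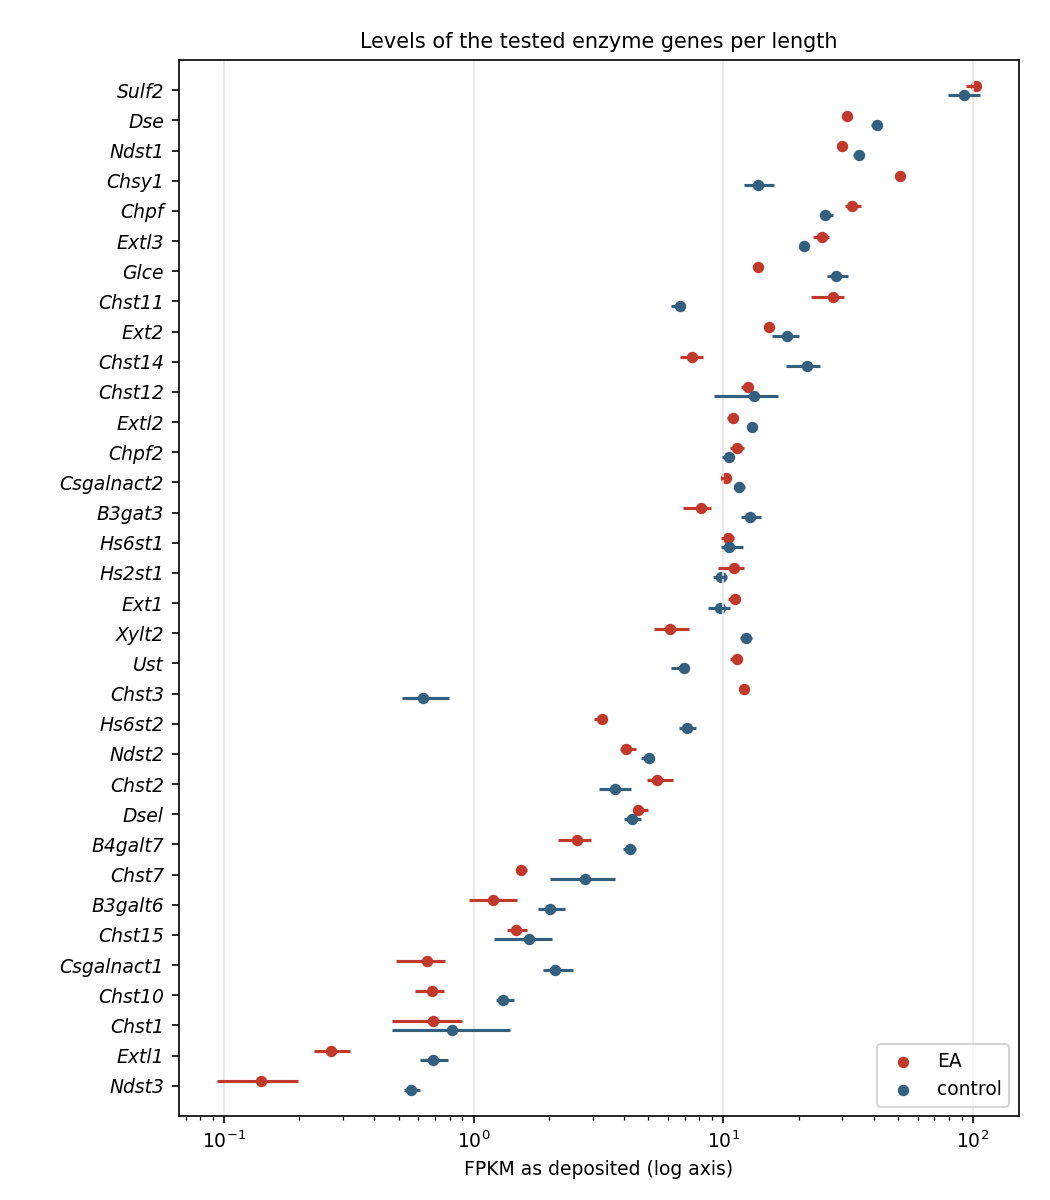
Deposited FPKM of the 34 tested enzyme genes on a log axis, with EA above control in each row. Points are means of 4 libraries and lines span the lowest to the highest library. Sulf2 is at the top in each group, and Chst3, Chst11 and Chsy1 have the widest gaps with EA higher, against Chst14, Csgalnact1 and Ndst3 with EA lower.

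All 4 tested linker genes were called lower with TMM scaling and with library totals. Of all tested genes 34.2% and 61.1% were. At an adjusted p under 0.01, 2 of the 4 were called. Xylt2 encodes the xylosyltransferase that puts the first sugar on the core protein, and it had 26.6, 23.8, 26.5 and 33.1 CPM (TMM scaled, as are all CPM of single genes) in EA libraries 1 to 4, against 41.2, 43.4, 42.9 and 46.0 in control libraries 1 to 4. Each EA library was below each control library, and the gene was 1.58-fold lower (log2 fold change −0.66 ± 0.09 SE, edgeR adjusted p = 1.66e-06). B3gat3, the glucuronyltransferase that completes the linker, had the highest mean FPKM of the linker genes, with a range that overlapped that of Xylt2 in each group. It had 24.1, 20.2, 26.0 and 25.5 CPM in EA and 32.2, 28.7, 29.0 and 27.0 in control, and was 1.22-fold lower without overlap, and the galactosyltransferase genes B4galt7 and B3galt6 were 1.26-fold and 1.32-fold lower. B3galt6 overlapped between groups and its edgeR adjusted p was 0.045, which no longer passed without EA library 1, 3 or 4 or without control library 1, 2 or 4. B4galt7 was no longer called without EA library 1 or without control library 2. Xylt1, the other xylosyltransferase, had 1 read in EA and 1 in control. The linker sum was 16.6 to 19.7 FPKM in EA and 30.9 to 32.3 in control as deposited, and it averaged 20.5 and 27.7 after TMM scaling, lower in EA both ways.

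Chain-building genes of heparan sulfate summed to 62.3 ± 1.41 FPKM in EA and 62.5 ± 2.90 in control as deposited, but to 70.7 ± 1.48 and 55.2 ± 2.27 after TMM scaling, 1.28-fold higher in EA. Extl3, which adds the first N-acetylglucosamine and so commits a linker to heparan sulfate, had 172, 158, 181 and 171 CPM in EA and 115, 114, 116 and 108 in control, without overlap. It rose 1.51-fold (log2 fold change 0.59 ± 0.06, edgeR adjusted p = 1.47e-08). The co-polymerase gene Ext1 rose 1.47-fold, to 101 ± 4.36 CPM in EA against 69.1 ± 6.08 in control, whereas its partner Ext2 had 127 ± 3.67 CPM in EA and 117 ± 11.3 in control and did not pass. With library totals Ext1 and Extl3 were still called higher, at log2 fold changes of 0.19 and 0.23, but Ext2 and Extl2, which is also a GlcNAc transferase, were then called lower. Without control library 3, Ext2 was called higher (log2 fold change 0.18). Extl1, an elongating transferase with low levels here, was 1.97-fold lower at 1.32 ± 0.184 CPM in EA and 2.63 ± 0.332 in control.

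N-deacetylase/N-sulfotransferases and the C5 epimerase set where heparan sulfate can be modified further. Ndst1, the most expressed of them, had 271, 272, 288 and 295 CPM in EA and 261, 253, 240 and 267 in control. Its EA libraries stood just above the control ones with TMM scaling (log2 fold change 0.14 ± 0.05, edgeR adjusted p = 0.0281), but below them with library totals, where it was called lower at −0.22, so its direction depended on the scaling. Ndst2, the form known for heparin of mast cells, had 21.0 ± 1.31 CPM in EA and 20.2 ± 1.13 in control and did not pass, and with library totals it was called lower at −0.30. Ndst3 (chromosome 3, 123319815 to 123484502, GRCm39, minus strand) had 1.05, 2.21, 1.69 and 1.35 CPM in EA against 4.59, 4.99, 4.63 and 5.33 in control. The groups were apart, but at 0.140 and 0.561 FPKM in EA and control the gene was the least expressed of those tested (log2 fold change −1.62 ± 0.22, edgeR adjusted p = 1.45e-06). Glce, the C5 epimerase that turns glucuronic into iduronic acid, was 1.60-fold lower, with 105, 102, 107 and 111 CPM in EA and 158, 174, 157 and 192 in control. Ndst4 had 10 reads in each group.

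O-sulfation genes of heparan sulfate divided by enzyme. Hs2st1, the 2-O-sulfotransferase gene, had 102, 105, 112 and 89.0 CPM in EA and 66.1, 70.9, 74.2 and 73.2 in control, and rose 1.44-fold. The rise of Hs2st1 was small with library totals (log2 fold change 0.16) and no longer passed in limma on log2 FPKM. Of the 6-O-sulfotransferases, Hs6st1 rose 1.28-fold, a call that was lost with library totals (−0.01), while Hs6st2 was 1.72-fold lower at 28.8 ± 1.72 CPM in EA and 49.5 ± 3.68 in control. Their ratio is free of library scaling: Hs6st1 over Hs6st2 in FPKM was 3.31, 3.19, 2.88 and 3.51 in EA and 1.75, 1.58, 1.30 and 1.27 in control. Every EA library thus leaned further to Hs6st1. The 3-O-sulfotransferases, which make rare sites such as the one for antithrombin, had few or no reads: Hs3st3a1 had 22 reads in EA and 26 in control, and Hs3st1, Hs3st2, Hs3st3b1, Hs3st4, Hs3st5 and Hs3st6 had 0 to 3 per group. Hs3st3a1 and Hs3st3b1 are close paralogs whose reads may not be separable. Hs6st3 had no read.

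Sulf2 had 712, 698, 702 and 628 CPM in EA and 480, 470, 550 and 415 in control. The groups did not overlap and Sulf2 rose 1.43-fold (log2 fold change 0.52 ± 0.07, edgeR adjusted p = 3.39e-06), but with library totals the difference was 0.15 and did not pass. Sulf1, the other endosulfatase, had 1 read in EA and 1 in control.

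Genes that start and extend chondroitin sulfate moved in both directions, with the polymerase genes higher. Chsy1 (chromosome 7, 65759263 to 65823546, plus strand), whose product carries both transferase activities of the chain, had 244, 246, 245 and 231 CPM in EA and 48.5, 51.8, 58.5 and 44.9 in control. The lowest EA library was far above the highest control library (log2 fold change 2.25 ± 0.07, edgeR adjusted p = 1.98e-16). Its partners in the polymerase complex, Chpf and Chpf2, rose 1.64-fold and 1.38-fold, although Chpf2 did not pass with library totals. Chsy3, the other synthase, had no read in any library, which with 3 counts as the limit allows up to 0.195 to 0.241 CPM in the EA libraries and 0.160 to 0.180 in the control libraries, for counting error alone. Csgalnact1 (chromosome 8, 68809433 to 69187798, minus strand) adds the first N-acetylgalactosamine. It had 4.42, 3.61, 4.10 and 2.85 CPM in EA against 9.35, 11.2, 8.42 and 9.22 in control, all EA libraries lying below (log2 fold change −1.35 ± 0.16, edgeR adjusted p = 2.18e-07). Csgalnact2, its more abundant relative, had 62.7 ± 2.13 CPM in EA and 55.6 ± 2.77 in control, called higher with TMM scaling (0.17) and lower with library totals (−0.19). The chain genes together summed to 106 ± 3.62 FPKM in EA and 63.6 ± 1.90 in control as deposited, and to 120 ± 3.74 and 56.1 ± 1.53 after TMM scaling. Chsy1 made up 48.2% of that sum in EA and 21.7% in control.

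**Figure D3:**
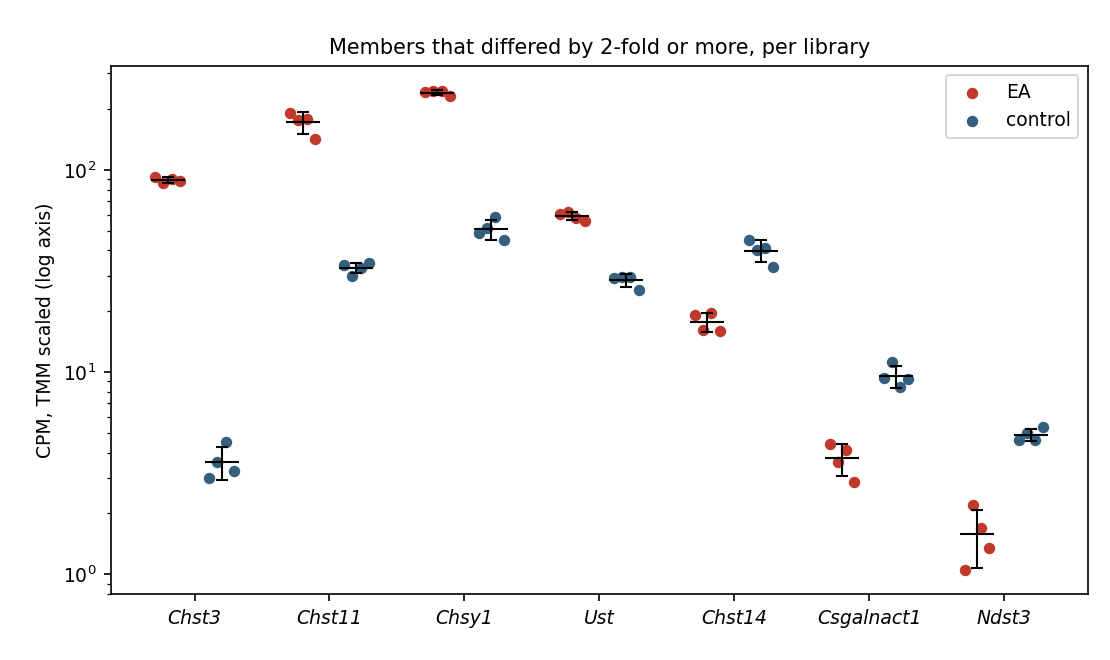
TMM-scaled CPM on a log axis for the 7 enzyme genes that were called, had no overlap between groups and differed by 2-fold or more. Each dot is a library, EA left of control, and bars are means with SD. Chst3, Chst11, Chsy1 and Ust are higher in every EA library and Chst14, Csgalnact1 and Ndst3 lower.

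Sulfation of chondroitin and dermatan sulfate held the widest range of change. Chst3 (chromosome 10, 60017354 to 60055082, minus strand), the chondroitin 6-O-sulfotransferase gene linked in humans to a skeletal dysplasia, had 92.1, 86.1, 90.6 and 88.1 CPM in EA and 2.98, 3.61, 4.52 and 3.25 in control. The groups were far apart (log2 fold change 4.63 ± 0.10, edgeR adjusted p = 4.77e-19), and the rise ranked 39 among the 11777 tested genes. In control it was among the least expressed of the tested enzymes, at 0.627 ± 0.121 FPKM, and in EA it reached 12.1 ± 0.370. Chst7, the other chondroitin 6-O-sulfotransferase, was lower by contrast, at 3.86 ± 0.188 CPM in EA and 5.43 ± 1.31 in control, with overlap between groups, and its call was lost without EA library 2 or 3 or without control library 3.

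Chst11 (chromosome 10, 82821332 to 83031734, plus strand), the main chondroitin 4-O-sulfotransferase of growing cartilage, had 191, 176, 178 and 142 CPM in EA and 34.0, 30.0, 32.6 and 34.5 in control. EA library 4 was the lowest of its group and still above every control library (log2 fold change 2.39 ± 0.08, edgeR adjusted p = 3.31e-15). Chst12, which has the same activity, had 33.0, 34.5, 31.5 and 34.8 CPM in EA and 31.8, 25.9, 34.1 and 19.2 in control and did not pass, although without control library 3 it was called higher (log2 fold change 0.39). Chst13, the remaining 4-O enzyme, had 0 reads in EA and 2 in control. Ust (chromosome 10, 8080520 to 8394589, minus strand) had 60.5, 62.1, 58.1 and 56.0 CPM in EA and 29.3, 29.7, 29.6 and 25.4 in control, a clean separation (log2 fold change 1.06 ± 0.07, edgeR adjusted p = 6.80e-11). Its rise was 0.69 on the log2 scale with library totals. Chst15, which adds a 6-O-sulfate to units already 4-O-sulfated, had 11.4 ± 0.968 CPM in EA and 9.89 ± 2.04 in control and did not pass except without control library 3 (0.33).

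Dermatan sulfate is chondroitin sulfate in which an epimerase has made iduronic acid, a step that 4-O-sulfation by the Chst14 product makes lasting. Chst14 (chromosome 2, 118756977 to 118759066, plus strand) had 19.1, 16.2, 19.6 and 15.9 CPM in EA against 45.0, 40.4, 40.9 and 33.1 in control. The EA libraries all lay below the control ones (log2 fold change −1.17 ± 0.10, edgeR adjusted p = 2.34e-09). Of the epimerase genes, Dse had 178, 172, 177 and 182 CPM in EA and 188, 176, 187 and 172 in control and did not pass with TMM scaling, but was called lower with library totals (−0.39). Dsel, the less expressed epimerase gene, rose 1.36-fold, which did not pass with library totals (0.08). Chst14 held 10.1% of the summed FPKM of the chondroitin and dermatan sulfation genes in EA and 40.3% in control, Chst11 37.0% and 12.7%, and Chst3 16.4% and 1.17%.

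Ratios of enzymes within a library show the same shifts without any scaling between libraries, and they are given as descriptions with no test. Chondroitin 4-O-sulfotransferases (Chst11, Chst12 and Chst13) over 6-O-sulfotransferases (Chst3 and Chst7) had FPKM ratios of 2.92 ± 0.218 in EA and 5.97 ± 0.838 in control, without overlap. So the 4-O genes, though Chst11 rose, lost ground to the 6-O sum in every EA library. That sum rose through Chst3 alone, as Chst7 had 1.54 FPKM in EA and 2.79 in control. Dermatan genes (Chst14, Dse and Dsel) over the chondroitin 4-O genes had ratios of 1.02, 1.03, 1.10 and 1.22 in EA and 3.21, 3.57, 2.98 and 3.79 in control. Heparan sulfate polymerases (Ext1 and Ext2) over chondroitin polymerases (Chsy1, Chsy3, Chpf and Chpf2) had 0.275, 0.286, 0.268 and 0.281 in EA and 0.533, 0.563, 0.589 and 0.535 in control. Csgalnact1 over Csgalnact2 averaged 0.0636 ± 0.0109 in EA and 0.183 ± 0.0196 in control, Ext1 over Ext2 0.727 ± 0.0467 and 0.541 ± 0.0631, and Dse over Dsel 6.94 ± 0.572 and 9.66 ± 1.14, each without overlap. Chpf over Chpf2 averaged 2.90 ± 0.233 in EA and 2.44 ± 0.0878 in control, also apart, while Ndst1 over Ndst2 overlapped at 7.37 ± 0.394 and 6.95 ± 0.0770.

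**Figure D4:**
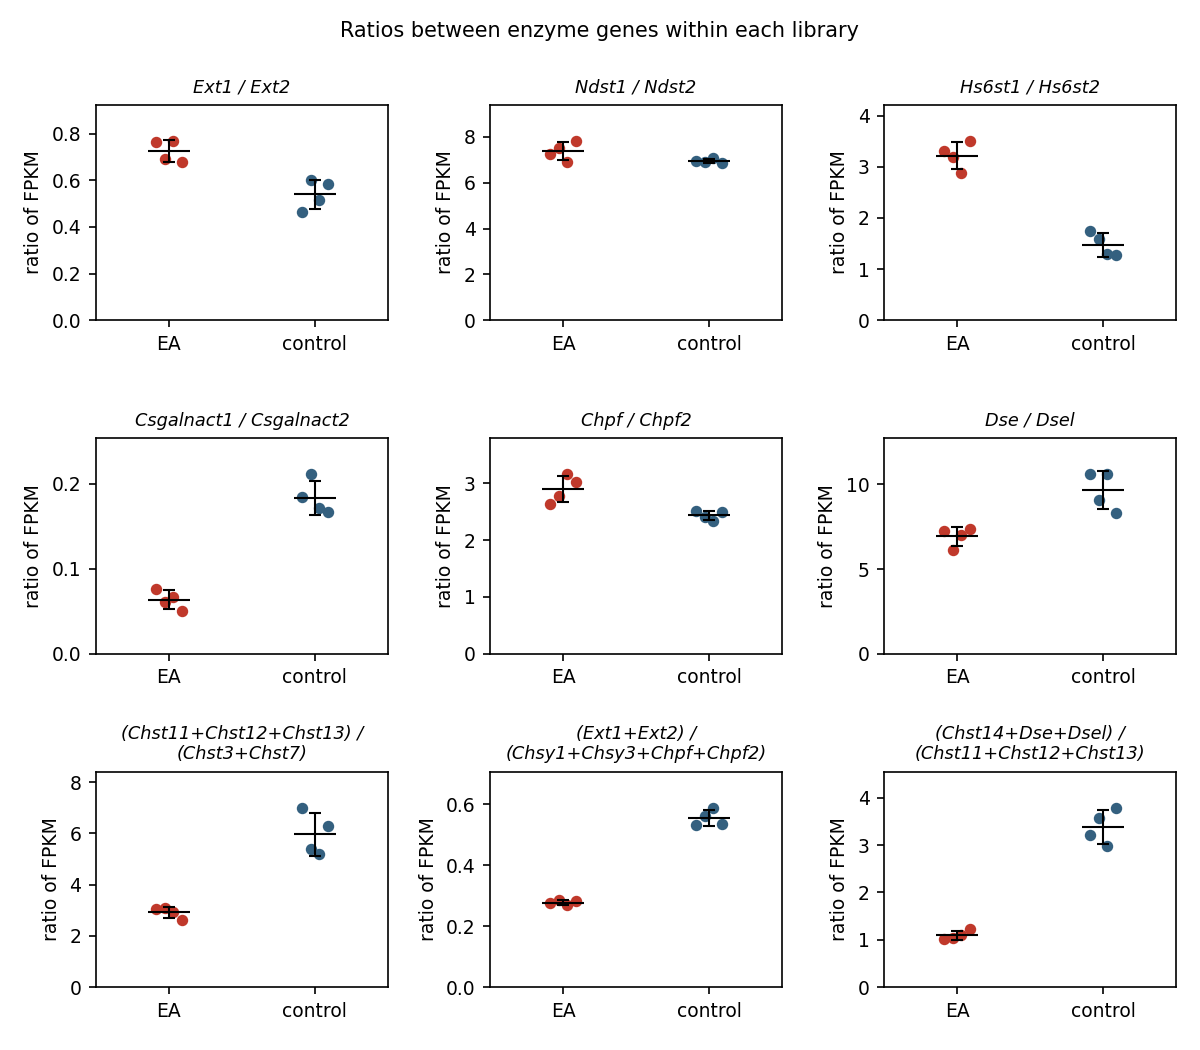
Ratio of summed FPKM between enzyme genes in each library, with axes from 0. Dots are the 4 EA libraries at the left and the 4 control libraries at the right of each panel, with mean and SD. The groups are apart in 8 of the 9 panels, the exception being Ndst1 over Ndst2.

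The DNA just upstream of the 3 chondroitin genes with the largest rises and of Chst14, which fell, is shown so that the starts of genes moving in opposite directions can be compared. Each is the 250 bases before the transcription start in RefSeq annotation of GRCm38.p6, a different build from that of the counts, read 5′ to 3′ on the gene's strand. Capitals mark the GC box bound by Sp1-type factors, GGGCGG or CCGCCC, and the SMAD box of TGF-beta signalling, CAGAC or GTCTG. Chst3 is at chr10:60219261-60219510 (minus strand), Chst11 at chr10:82985247-82985496 (plus), Chsy1 at chr7:66109242-66109491 (plus) and Chst14 at chr2:118926247-118926496 (plus).
Chst3: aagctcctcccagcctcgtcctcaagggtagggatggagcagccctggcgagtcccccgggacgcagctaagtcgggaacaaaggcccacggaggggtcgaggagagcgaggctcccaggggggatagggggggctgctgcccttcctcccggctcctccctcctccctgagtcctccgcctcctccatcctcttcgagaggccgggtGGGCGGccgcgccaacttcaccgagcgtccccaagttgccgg
Chst11: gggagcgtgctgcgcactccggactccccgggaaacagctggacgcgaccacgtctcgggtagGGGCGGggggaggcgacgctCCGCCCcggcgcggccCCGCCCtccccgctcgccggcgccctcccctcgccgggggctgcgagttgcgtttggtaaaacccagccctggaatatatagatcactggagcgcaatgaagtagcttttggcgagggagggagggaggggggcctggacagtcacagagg
Chsy1: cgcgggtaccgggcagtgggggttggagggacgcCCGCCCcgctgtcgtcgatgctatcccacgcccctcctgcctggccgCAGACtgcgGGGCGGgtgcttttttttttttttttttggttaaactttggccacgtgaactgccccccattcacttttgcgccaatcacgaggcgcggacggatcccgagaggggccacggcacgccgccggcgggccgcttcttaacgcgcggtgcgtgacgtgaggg
Chst14: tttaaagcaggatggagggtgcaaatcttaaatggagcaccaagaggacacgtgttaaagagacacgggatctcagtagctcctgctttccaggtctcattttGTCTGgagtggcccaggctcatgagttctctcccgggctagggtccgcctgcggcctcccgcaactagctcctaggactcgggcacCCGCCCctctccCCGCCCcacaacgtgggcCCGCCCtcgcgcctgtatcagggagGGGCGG
All 4 windows held GC boxes, 1 in Chst3, 3 in Chst11, 2 in Chsy1 and 4 in Chst14. On both strands a GC box was found in 32.7% of 32851 windows of this length in the RefSeq table, and in 60.4% of the 48 windows of the 41 enzyme genes matched by symbol. The GC content of the windows was 69.6% in Chst3, 70.0% in Chst11, 65.6% in Chsy1 and 61.2% in Chst14, against a median of 64.0% over windows of the enzymes and 52.4% over the table. The SMAD box occurred once in Chsy1 and once in Chst14 but not in Chst3 or Chst11, and is in 42.2% of the table's windows and 39.6% of those of the enzymes. Of the other motifs searched on both strands, GGCGCC (a GC-rich SMAD element) lay once in Chst11 and is in 9.59% of the table's windows and 20.8% of those of the enzymes. Neither TGANTCA (AP-1) nor GGAATG (TEAD) lay in any of the 4. TGANTCA is in 6.75% of the table's windows and 4.17% of those of the enzymes, and GGAATG in 12.6% and 14.6%. No motif was called a binding site, and matches of different motifs may overlap.

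The remaining carbohydrate sulfotransferases act mainly on keratan sulfate and on N-glycans. Chst2, a GlcNAc 6-O-sulfotransferase gene, had 44.5, 41.1, 51.9 and 42.5 CPM in EA and 23.5, 23.5, 27.4 and 20.7 in control. It rose 1.90-fold with no overlap (log2 fold change 0.92 ± 0.09, edgeR adjusted p = 2.52e-08), and by 0.56 with library totals. Chst10, which makes the HNK-1 epitope of neural glycans, was 1.51-fold lower at 9.19 ± 1.07 CPM in EA and 13.8 ± 0.940 in control. Chst1, the galactose sulfotransferase of keratan sulfate, had 2.09 ± 0.656 and 1.94 ± 0.984 CPM and did not pass. Chst4 had 1 read in EA and 3 in control, and Chst5, Chst8 and Chst9 had none.

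Between libraries of a group the tested enzymes varied little. The coefficient of variation of CPM had a median of 6.12% in EA and 7.61% in control, and the highest were those of the low genes Ndst3 in EA (31.7%) and Chst1 in control (50.8%). The spans of 5 of the enzyme genes overlap those of another gene in the table. These are Sulf2 with Ncoa3, Ext2 with Alx4, Chpf2 with Smarcd3 and Ndst1 with Rps14, each on the opposite strand, and Chst15 with Fgfr2 on the same strand. Whether reads were counted by strand is not given in the sources used here, so reads of such pairs may not be separable. None of the 7 genes with changes of 2-fold or more with TMM scaling is among them.

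Other genes of the pathway were taken from lists of sulfate and sugar donor supply, linker phosphorylation, core proteins and breakdown. Of 56 tested, 31 were higher and 10 lower, their log2 fold changes having a median of 0.21, and library totals gave 15 and 26. Over all tested genes 33.1% were higher and 34.2% lower, or 16.5% and 61.1% with library totals. In donor supply 11 of 20 rose and 5 fell, against those 33.1% and 34.2%, or 5 and 8 with library totals, against 16.5% and 61.1%. Ugdh, which makes the UDP-glucuronic acid that all these chains use, rose 4.26-fold (log2 fold change 2.09 ± 0.07), with means of 190 CPM in EA and 44.6 in control. Uap1, which makes UDP-N-acetylglucosamine, rose 4.17-fold to 138 ± 4.91 CPM in EA, against 33.0 ± 1.36 in control. Gfpt2, an entry enzyme of that hexosamine route chosen after its value was seen, rose 7.67-fold from a low level, with 7.87 ± 1.13 CPM in EA and 1.02 ± 0.335 in control. The rest of that route did not follow. Gfpt1, the far more abundant entry enzyme (250 CPM in EA, 196 in control), rose 1.27-fold and was not called with library totals. Pgm3 did not pass, and Gnpnat1 was 3.13-fold lower without overlap, at 0.424 CPM in EA and 1.36 in control. These too were named after their values were seen.

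The sulfate importer gene went the other way from Ugdh and Uap1. Slc26a2, the sulfate importer of the cell surface that is mutated in human chondrodysplasias, was 4.01-fold lower, at 77.8 ± 5.01 CPM in EA and 312 ± 62.8 in control, with no overlap between groups. Slc35d2, a nucleotide sugar transporter gene, was 2.53-fold lower. The genes of PAPS synthesis, the sulfate donor, moved less. Papss1 had 58.7 ± 4.78 CPM in EA and 61.0 ± 2.93 in control and did not pass, but was called lower with library totals. Papss2 rose 1.17-fold, which was not called with library totals. Both were chosen after their values were seen. Of the linker's phosphate cycle, the phosphatase gene Pxylp1 rose 2.76-fold and the kinase gene Fam20b was called higher with TMM scaling (log2 fold change 0.20) and lower with library totals (−0.16).

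Core proteins of heparan sulfate had 9 of 11 tested genes higher and none lower, against 33.1% and 34.2% of all tested genes, or 4 higher and 4 lower with library totals, against 16.5% and 61.1%. The syndecan genes Sdc4 and Sdc2 rose 6.09-fold and 2.30-fold. Core proteins of chondroitin and dermatan sulfate had 3 of 6 higher and 1 lower, and 3 and 2 with library totals, too few to read against those shares. Cspg4, the NG2 proteoglycan gene, rose 4.73-fold to 859 ± 15.7 CPM in EA, against 182 ± 18.1 in control, and Bgn, which encodes biglycan, rose 1.75-fold, whereas Dcn, the decorin gene, was 1.99-fold lower. Among breakdown enzymes 6 of 17 rose and 4 fell, or 2 and 11 with library totals. The rises were near the 33.1% of all tested genes, and the falls with library totals near the 61.1%. Ids, the iduronate sulfatase gene, and Hexa, a hexosaminidase subunit gene, rose 2.81-fold and 1.68-fold, and Sumf2, a relative of the sulfatase-activating factor, and Idua, the iduronidase gene, were 1.75-fold and 1.72-fold lower.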

How the data were processed

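RNA sequencing of 8 libraries was used, 4 of EA and 4 of control. The authors deposited read counts for each gene, and per the submitters' processing notes the tools were cutadapt 1.15 and HISAT2 2.0.5 with build GRCm39. The counter, strand setting and annotation release were not given in the sources used here. Deposited FPKM values follow from the counts, the gene length and each column's total (largest relative deviation 3.56e-14).

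Counts were fitted in R 4.3.3 with edgeR 4.0.16, using TMM factors, edgeR's default filter on groups, and its robust quasi-likelihood test with no covariate, with Benjamini-Hochberg adjustment over 11777 genes and calls at an adjusted p under 0.05. The SE of a log2 fold change is its size over the square root of F. The steps were run on simulated counts in which only a small part of the genes changed, unlike these data. That run therefore does not bear on the choice of scaling. Members, lists and tests were chosen with earlier results of these data known. Values of every library are given for called members without overlap whose log2 fold change was at least 1 in size at a mean of at least 1 CPM, and for the most expressed of each role. They are also given for Xylt2, Glce and Chst12, which this rule does not select. In O-sulfation of heparan sulfate the highest mean FPKM was that of Hs2st1 in EA (11.0, Hs6st1 10.4). In control it was that of Hs6st1 (10.5, Hs2st1 9.82), and the ranges overlapped in each group. Of this pair, only Hs2st1 has its library values printed. Up to 2 called genes per direction by p were named from each related list. Alternatives used limma 3.58.1, DESeq2 1.42.0 and other scalings, filters and sets of libraries. Sequences are from RefSeq. Figures used matplotlib 3.10.9.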

Additional observations from a re-analysis of the deposited data

Results flagged for a closer look

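Of 68 groups of 4 libraries, 3 had a library far from the rest of its group, or 4.41%, where chance gives about 1 in 20. Sulf2 had 628 CPM in EA library 4, against 698 to 712 in the other EA libraries. Chsy1 had 231 CPM in the same library, against 244 to 246 in the others. Ust had 25.4 CPM in control library 4, against 29.3 to 29.7 in the others. None of these values lay within the range of the opposite group.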

How the results depend on the processing

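The counts of enzymes called higher and lower, 15 and 12, were 14 and 11 without a filter, 15 and 10 with a CPM above 1 in every library, 15 and 11 in DESeq2, 15 and 12 with RLE factors or limma voom, 13 and 9 at an adjusted p under 0.01, and 13 and 13 with upper-quartile factors, which moved the median of all tested genes by −0.16. Leaving out each library in turn gave 13 to 16 higher and 10 to 11 lower. Scaling by library totals gave 9 enzymes higher, and limma on log2 FPKM gave 8 with a pseudocount of 1 and 8 with 0.1. For all genes higher (3893) and all genes lower (4027), library totals gave 1940 and 7196, a pseudocount of 1 gave 1924 and 7170, and 0.1 gave 1922 and 7179. Of related genes each of these settings gave 15 higher and 26 lower. Ndst1, Csgalnact2 and Fam20b were called on the other side with library totals, FPKM and a pseudocount of 1, and FPKM and a pseudocount of 0.1, with Ndst1 at −0.22, −0.21 and −0.22, Csgalnact2 at −0.19, −0.17 and −0.19, and Fam20b at −0.16, −0.15 and −0.16. These settings lack the composition factors. In the leave-one-out fits 26 of the 34 enzymes kept their call throughout. Deviations of same-numbered libraries had correlations of −0.0215 to 0.0266, within the −0.105 to 0.0972 of libraries with different numbers. No sign of pairing by number was thus seen, but such values cannot tell whether the cultures were paired. With a replicate block 15 enzymes were higher and 11 lower, and B3galt6 was no longer called. Low counts limit Ndst3, Extl1 and Chst1.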

Other observations

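Chst3, Chst11 and Ust all lie on chromosome 10, where 4 of the enzymes were tested. They are 3 of the 4 enzymes that rose 2-fold or more with TMM scaling. The position was noticed after the values were seen and was not tested. Of 592 tested genes of that chromosome 56 rose by as much (9.46%), against 8.99% of all tested genes. The genes are far apart, at 8080520 for the start of Ust, 60017354 for Chst3 and 82821332 for Chst11.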
